A study of Homo sapiens with 16 samples.

Results

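The interleukin-1 (IL-1) family was followed through 9 of its genes, which are the ligands IL1A, IL1B, IL18 and IL33, the receptor antagonist IL1RN, and the receptor chains IL1R1, IL1R2, IL1RAP and IL1RL1. All 9 were found by symbol among the 57820 genes of the count tables, of which 19404 are protein-coding. Bulk RNA-Seq covered MDA-MB-231 and MDA-MB-436, mesenchymal triple-negative breast cancer cell lines. Each line had been stably transfected with 7TGP, a puromycin-selected plasmid in which TCF/LEF binding sites drive eGFP, and was sorted repeatedly by eGFP into a 7TGP-NEG and a 7TGP-POS subline. Both sublines come from cells that went through the transfection and selection. Each was sorted and expanded as a population, without a cloning step in the methods, and how many clones it holds is not stated. An unsorted parental group was not analysed here. The sublines were grown in low serum (0.5% FBS, harvested on day 3) or standard serum (10% FBS, day 6), with 2 biological replicates in each of the 8 groups and 16 libraries in all. The methods give a different library preparation for each serum condition, so serum, day, preparation and run cannot be told apart, and no test was made between serum conditions. They also give a different medium for each cell line, whereas the labels give a common medium, so a difference between cell lines includes any difference in medium.

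IL-1α and IL-1β, the products of IL1A and IL1B, are alarm cytokines that bind the receptor IL-1R1 with its co-receptor IL-1RAP and switch on NF-κB and MAP kinase signalling through MyD88 and IRAK kinases. IL-1Ra (IL1RN) blocks that receptor, and IL-1R2 binds the ligands without signalling, as a decoy. IL-33 acts through ST2 (IL1RL1), which also uses IL-1RAP, and IL-18 has receptor chains of its own. IL-1β and IL-18 are made as precursors that caspase-1 cuts, whereas IL-1α and IL-33 are also found in the nucleus. In breast cancer cells, IL-1 is known as an inducer of chemokines, IL-6 and prostaglandin synthesis.

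IL1A and IL1B differed more between the sublines in MDA-MB-231 than in MDA-MB-436, and in MDA-MB-231 7TGP-POS cells held several times the level of 7TGP-NEG cells in either serum condition. A gene is called changed here when its Benjamini-Hochberg adjusted p from edgeR's quasi-likelihood test was under 0.05 and its log2 fold change was at least 1 in size. In MDA-MB-231, 3 of the 9 members were called higher in 7TGP-POS cells in low serum (IL1A, IL1B and IL1RL1). In standard serum 5 of the 8 tested members were called higher (IL1A, IL1B, IL1R1, IL1RL1 and IL33). Of all protein-coding genes tested, 3.5% and 4.96% were called higher. IL1RN was the member called lower, in low serum, where 2.4% of all genes were called lower and 5.9% in either direction. In standard serum no member was called lower in MDA-MB-231, where 2.72% of all genes were called lower and 7.69% in either direction. In MDA-MB-436, IL33 alone rose in low serum, and IL1B, IL18, IL33 and IL1RL1 rose in standard serum, against 6.52% and 6.47% of all genes called higher. No member was called lower there, against 4.03% and 6.06% of all genes called lower and 10.5% and 12.5% called in either direction. The median log2 fold change over the tested members was 1.21 in low serum and 1.48 in standard serum in MDA-MB-231, and 0.51 and 1.12 in MDA-MB-436. Over all genes tested it lay between -0.01 and 0.01 in these 4 comparisons. IL1R2 was tested in low serum only, because it held fewer than 10 counts over the 8 libraries of standard serum.

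**Figure D1:**
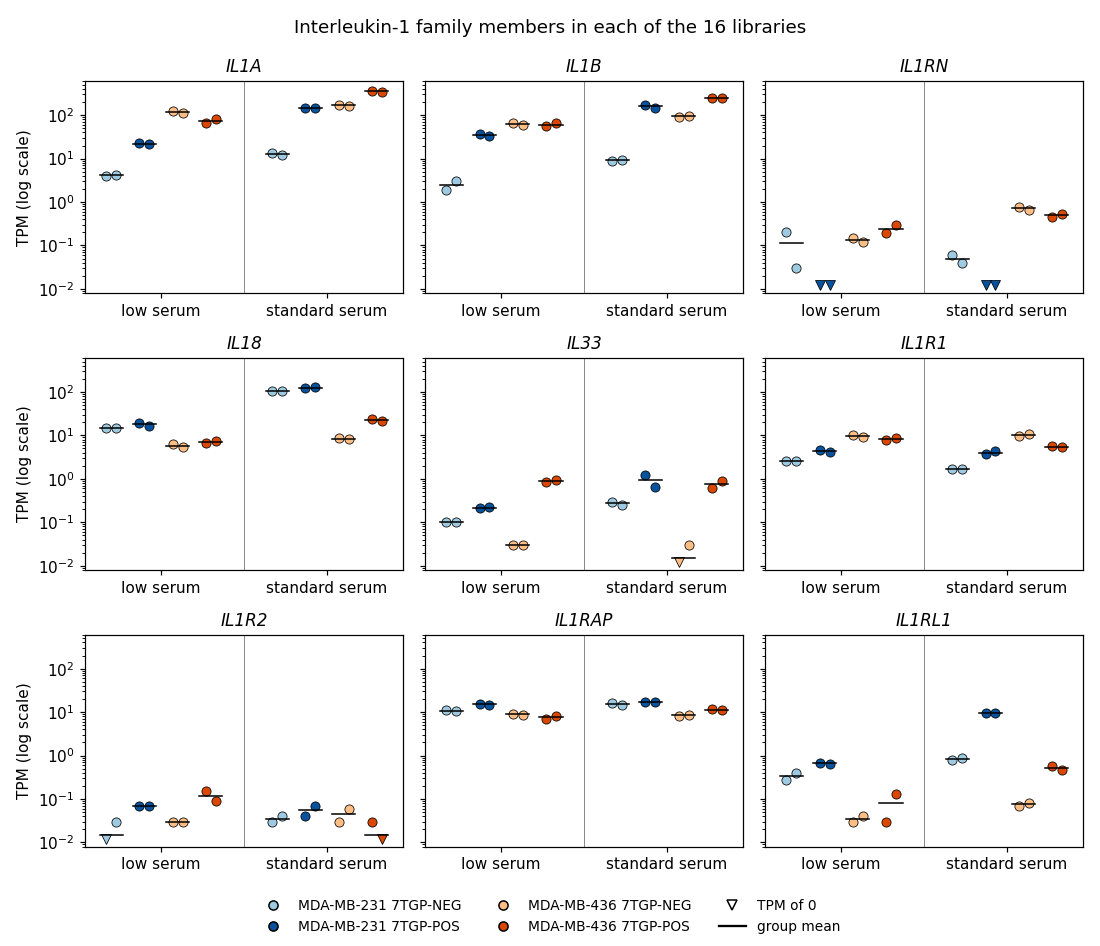
TPM (transcripts scaled for gene length and library total, as deposited; log scale) of each member in each library, with 2 libraries per group, a line at the group mean and triangles for a TPM of 0. IL1A and IL1B lie lowest in MDA-MB-231 7TGP-NEG in both serum conditions (IL1A 4.13 and 12.5 TPM, IL1B 2.42 and 9.06 TPM as group means), and IL1RN is at 0 in all 4 MDA-MB-231 7TGP-POS libraries.

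The members lie on 4 chromosomes (hg19, Gencode v44 lifted to GRCh37). IL1A (2, 113531502 to 113542070, minus strand), IL1B (2, 113587328 to 113594393, minus strand) and IL1RN (2, 113856892 to 113891593, plus strand) belong to the ligand cluster of chromosome 2. IL1R2 (2, 102608422 to 102645006), IL1R1 (2, 102681004 to 102796334) and IL1RL1 (2, 102927962 to 102968497) belong to the receptor cluster of the same chromosome, all on the plus strand. IL18 lies on chromosome 11 (112013976 to 112034819, minus strand), IL33 on chromosome 9 (6215786 to 6257983, plus strand) and IL1RAP on chromosome 3 (190231840 to 190377539, plus strand). IL1RL1 overlaps IL18R1 on the same strand, so reads could be split between them. IL18 and IL1R1 each overlap a gene on the opposite strand, and the strand setting of the authors' counting is not given in the sources used here.

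The start-site sequences of the 4 members called in at least 2 of the 4 reporter comparisons are shown because the sublines were sorted on a reporter that reads TCF/LEF sites. Each is the 250 bases before the RefSeq start site listed first for the gene (GRCh38.p14), 5′ to 3′ on the gene's strand, with capitals at matches to the AP-1 motif TGANTCA. They are chr2:112784494-112784743 (minus) for IL1A, chr2:112836780-112837029 (minus) for IL1B, chr9:6214899-6215148 (plus) for IL33 and chr2:102337007-102337256 (plus) for IL1RL1.
IL1A: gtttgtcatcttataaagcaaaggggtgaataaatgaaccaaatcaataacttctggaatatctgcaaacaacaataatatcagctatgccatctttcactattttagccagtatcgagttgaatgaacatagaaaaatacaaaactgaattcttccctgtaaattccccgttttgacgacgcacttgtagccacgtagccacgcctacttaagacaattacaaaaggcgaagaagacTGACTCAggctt
IL1B: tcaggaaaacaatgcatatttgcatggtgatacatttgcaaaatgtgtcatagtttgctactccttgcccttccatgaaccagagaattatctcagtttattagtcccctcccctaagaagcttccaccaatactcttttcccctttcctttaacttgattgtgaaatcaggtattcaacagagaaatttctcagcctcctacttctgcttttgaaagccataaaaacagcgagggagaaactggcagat
IL33: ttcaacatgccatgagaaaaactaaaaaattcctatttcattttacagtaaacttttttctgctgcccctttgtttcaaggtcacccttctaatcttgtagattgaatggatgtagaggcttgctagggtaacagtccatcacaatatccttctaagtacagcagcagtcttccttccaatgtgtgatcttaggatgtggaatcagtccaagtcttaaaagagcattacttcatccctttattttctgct
IL1RL1: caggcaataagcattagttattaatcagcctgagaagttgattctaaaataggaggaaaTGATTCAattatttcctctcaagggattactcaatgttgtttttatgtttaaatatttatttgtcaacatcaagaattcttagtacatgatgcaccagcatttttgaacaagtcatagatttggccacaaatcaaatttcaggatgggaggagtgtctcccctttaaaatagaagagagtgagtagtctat
The windows were searched on both strands for the TCF/LEF core CTTTGAT, for TGANTCA and for the NF-κB consensus of 10 letters, none of which overlapped another match. RefSeq windows were found for 8 of the 9 members (all but IL18), 17 windows in all. The TCF/LEF core was in 0 of these 17 windows and in 2.27% of the 34788 RefSeq windows of this length. The NF-κB consensus was likewise in 0 of the 17, and in 5.21% of all windows. At shares this low, 0 of 17 windows was a likely outcome and says little about these genes. Sites outside the 250 bases were not searched. TGANTCA was in 4 of the 17 windows and in 6.59% of all windows, with matches upstream of IL1A, IL1RN and IL1RL1. In the IL1A window shown, the match ends 6 bases before the start site. The IL1A window listed second overlaps it and holds that same match and a further match. Windows of IL1RN also overlap in part, so the 17 windows are not separate sequences. These are matches of letters, and binding was not measured.

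IL1A, which encodes IL-1α, rose in MDA-MB-231 7TGP-POS cells in both serum conditions. In low serum it held 4.04 and 4.22 TPM (107 and 108 counts) in the 2 MDA-MB-231 7TGP-NEG libraries and 22.3 and 21.2 TPM (620 and 624 counts) in the 7TGP-POS libraries. In standard serum the values were 13.2 and 11.8 TPM in 7TGP-NEG and 147 and 144 TPM in 7TGP-POS. Replicates lay close together and the sublines did not overlap. The log2 fold change was 2.6 ± 0.098 (SE, adjusted p = 4.1e-24) in low serum, a 6.05-fold difference, and 3.50 ± 0.090 (adjusted p = 3.23e-15) in standard serum, an 11.3-fold difference. In MDA-MB-436, IL1A was already high in 7TGP-NEG cells, at 125 and 112 TPM in low serum against 67.4 and 81.0 TPM in 7TGP-POS. In standard serum it held 169 and 166 TPM in 7TGP-NEG and 359 and 341 TPM in 7TGP-POS, where it ranked 355 and 400 among protein-coding genes by TPM. Neither MDA-MB-436 comparison was called: the log2 fold change was -0.44 ± 0.059 (adjusted p = 3.35e-08) in low serum and 0.97 ± 0.075 (adjusted p = 7.15e-09) in standard serum, both short of the fold limit. The value in standard serum lies just inside that limit and passed it, at 1.01, without 7TGP-POS replicate 2.

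IL1B, which encodes the secreted ligand IL-1β, also rose in MDA-MB-231 7TGP-POS cells in both serum conditions, with a larger difference than IL1A. It held 1.87 and 2.98 TPM in MDA-MB-231 7TGP-NEG and 37.3 and 32.4 TPM in 7TGP-POS cells in low serum (72 and 111 against 1513 and 1389 counts). In standard serum it held 8.62 and 9.51 TPM against 169 and 149 TPM. The groups were far apart compared with their replicates, although the 7TGP-NEG replicates in low serum differed from each other more than the rest. The log2 fold change was 4.05 ± 0.10 (adjusted p = 6.26e-28) in low serum, or 16.6-fold, and 4.10 ± 0.10 (adjusted p = 1.75e-15) in standard serum, or 17.1-fold. In MDA-MB-436 in low serum, IL1B held 65.1 and 59.4 TPM in 7TGP-NEG and 57.0 and 64.5 TPM in 7TGP-POS, which overlap. The edgeR log2 fold change there was 0.21 ± 0.064 (adjusted p = 0.00537), and limma-trend on log2(TPM + 1) gave -0.04, so no direction is stated. In standard serum it rose from 92.6 and 98.1 TPM to 254 and 242 TPM in MDA-MB-436, with a log2 fold change of 1.28 ± 0.083 (adjusted p = 5.89e-10).

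The balance of the ligands also differed between sublines. The ratio of IL1B to IL1A in TPM was 0.463 and 0.706 in MDA-MB-231 7TGP-NEG and 1.67 and 1.53 in 7TGP-POS cells in low serum, and 0.651 and 0.807 against 1.15 and 1.03 in standard serum. In MDA-MB-436 it was 0.519 and 0.528 in 7TGP-NEG and 0.847 and 0.796 in 7TGP-POS cells in low serum, and 0.548 and 0.59 against 0.709 and 0.708 in standard serum. In each of the 4 comparisons both 7TGP-POS libraries lay above both 7TGP-NEG libraries. IL1B exceeded IL1A only in the 4 MDA-MB-231 7TGP-POS libraries. With 2 libraries against 2, an exact permutation test cannot reach a p under 0.05, and none was run on the ratio.

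IL18, which encodes a ligand that induces interferon-γ in lymphocytes, was higher in MDA-MB-231 than in MDA-MB-436 in both serum conditions. In low serum it held 14.8 and 14.5 TPM in MDA-MB-231 7TGP-NEG, 19 and 16.7 TPM in MDA-MB-231 7TGP-POS, 6.31 and 5.26 TPM in MDA-MB-436 7TGP-NEG, and 6.51 and 7.4 TPM in MDA-MB-436 7TGP-POS. The levels in standard serum were 103 and 107 TPM, 121 and 127 TPM, 8.7 and 8.06 TPM, and 24.3 and 21.3 TPM in the same order. All MDA-MB-231 libraries of a serum condition lay above all MDA-MB-436 libraries. The reporter contrast was called in MDA-MB-436 in standard serum, with a log2 fold change of 1.35 ± 0.10 (adjusted p = 5.34e-09), or 2.55-fold. In the other 3 comparisons the log2 fold change was positive and short of the fold limit, at 0.48 ± 0.086 (adjusted p = 1.27e-05) and 0.19 ± 0.084 (adjusted p = 0.0863) in MDA-MB-231 in low and standard serum and 0.51 ± 0.12 (adjusted p = 0.000338) in MDA-MB-436 in low serum.

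IL33, which encodes an alarmin of barrier tissues and stroma, was low in all libraries, at most 1.24 TPM, and differed most between the sublines of MDA-MB-436. There it held 1 and 1 count in 7TGP-NEG and 36 and 32 counts in 7TGP-POS cells in low serum, and 0 and 1 against 24 and 28 counts in standard serum. The sublines did not overlap. Scaled to library totals, the ratio was 35 (95% exact counting interval 9.32 to 295) in low serum and 46.0 (7.9 to 1851) in standard serum, where the wide interval comes from the few counts of the 7TGP-NEG libraries and covers counting error only. Both were called (adjusted p = 1.09e-08 and 5.09e-05). In MDA-MB-231 it held 4 and 4 counts in 7TGP-NEG and 9 and 10 in 7TGP-POS cells in low serum, and 9 and 7 against 36 and 20 counts in standard serum. The log2 fold change was 1.29 ± 0.63 (adjusted p = 0.107) in low serum and 1.71 ± 0.47 (adjusted p = 0.00834) in standard serum. The call in standard serum rests on replicate 1 of 7TGP-POS, without which the log2 fold change was 1.16 (adjusted p = 0.13), and the DESeq2 Wald test did not make it (adjusted p = 0.086).

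IL1RN, which encodes the receptor antagonist, was at or near 0 in every group. In MDA-MB-231 it held 8 and 1 counts in 7TGP-NEG and 0 and 0 in 7TGP-POS cells in low serum, and 2 and 1 against 0 and 0 in standard serum. With the 7TGP-POS group of low serum set to a floor of 3 counts, IL1RN was 2.88-fold lower there than in 7TGP-NEG. This value follows from the floor and is not a confidence limit. edgeR called the low serum comparison (adjusted p = 0.0208). The call was lost without 7TGP-NEG replicate 1, which holds 8 of the 9 counts (adjusted p = 0.371), and without either 7TGP-POS replicate (adjusted p = 0.0968 and 0.0934). In standard serum neither MDA-MB-231 group exceeded the floor. The MDA-MB-436 libraries held 5 and 4 counts in 7TGP-NEG and 8 and 10 in 7TGP-POS cells in low serum, and 23 and 23 against 18 and 17 counts in standard serum. Neither was called (adjusted p = 0.236 and 0.182). The highest level of IL1RN in any library was 0.76 TPM, in MDA-MB-436 7TGP-NEG in standard serum, where IL1B held at least 92.6 TPM.

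**Figure D2:**
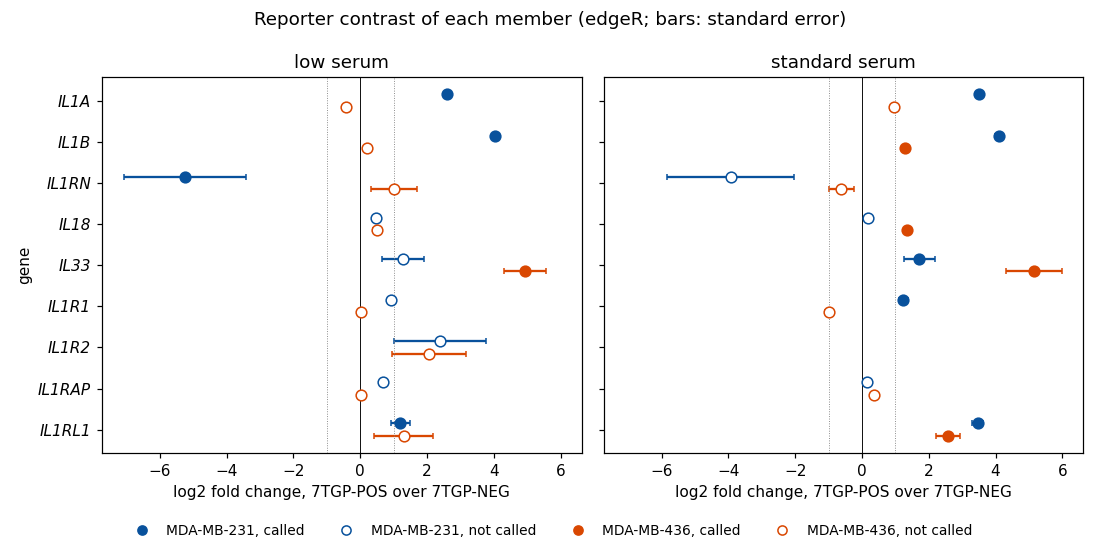
edgeR log2 fold change (x axis) of 7TGP-POS over 7TGP-NEG for each member (y axis), with standard errors, in low serum on the left and standard serum on the right. Filled points were called, dotted lines mark a log2 fold change of 1 in either direction, and IL1A and IL1B in MDA-MB-231 lie between 2.6 and 4.10 while the same genes in MDA-MB-436 lie between -0.44 and 1.28.

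IL1R1, the signalling receptor of both IL-1 ligands, had log2 fold changes of opposite sign in the cell lines in standard serum. In MDA-MB-231 it held 1.64 and 1.69 TPM in 7TGP-NEG and 3.7 and 4.35 TPM in 7TGP-POS, and in MDA-MB-436 it held 9.63 and 10.9 TPM in 7TGP-NEG and 5.71 and 5.29 TPM in 7TGP-POS. The sublines did not overlap in either line, and MDA-MB-231 7TGP-NEG was the lowest group. The log2 fold change was 1.24 ± 0.14 (adjusted p = 1.37e-06) in MDA-MB-231, which was called, and -0.99 ± 0.11 (adjusted p = 1.02e-06) in MDA-MB-436, which fell just short of the fold limit and passed it with DESeq2 (-1.02) and without replicate 1 of either MDA-MB-436 subline (-1.07 each). In low serum IL1R1 held 2.63 and 2.59 TPM in MDA-MB-231 7TGP-NEG and 4.52 and 4.17 TPM in 7TGP-POS, with a log2 fold change of 0.94 ± 0.096 (adjusted p = 1.18e-10), just short of the limit. In MDA-MB-436 it held 10.2 and 9.2 TPM against 7.8 and 8.89 TPM in low serum, and the log2 fold change of 0.03 ± 0.078 (adjusted p = 0.778) changed sign with the scaling.

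IL1RAP, the co-receptor shared by IL-1R1 and ST2, was the most even of the members, between 7.09 and 17.4 TPM in all 16 libraries. No reporter comparison called it. The largest was in MDA-MB-231 in low serum, with 10.9 and 10.5 TPM in 7TGP-NEG against 15.3 and 14.7 TPM in 7TGP-POS and a log2 fold change of 0.69 ± 0.062 (adjusted p = 4.02e-12). IL1R2, the decoy receptor, held at most 6 counts in any library. Its summed counts were 1 against 6 in MDA-MB-231 and 2 against 9 in MDA-MB-436 in low serum (7TGP-NEG against 7TGP-POS), with ratios of 6.24 (95% counting interval 0.757 to 287) and 4.63 (0.959 to 44) and adjusted p of 0.182 and 0.118. A difference in IL1R2 was not detectable at this depth.

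IL1RL1, which encodes the IL-33 receptor ST2, rose in MDA-MB-231 7TGP-POS cells, most in standard serum. It held 0.79 and 0.87 TPM (43 and 43 counts) in 7TGP-NEG and 9.48 and 9.41 TPM (490 and 526 counts) in 7TGP-POS there, and 0.27 and 0.4 against 0.69 and 0.65 TPM in low serum. The sublines did not overlap in either condition. The log2 fold change was 3.47 ± 0.17 (adjusted p = 2.02e-11) in standard serum, an 11.1-fold difference, and 1.21 ± 0.30 (adjusted p = 0.00103) in low serum. The call in low serum was lost without 7TGP-NEG replicate 1 (log2 fold change 0.94) and with the DESeq2 Wald test (adjusted p = 0.0638). In MDA-MB-436 it held 4 and 5 counts in 7TGP-NEG and 39 and 26 in 7TGP-POS cells in standard serum, with a log2 fold change of 2.58 ± 0.37 (adjusted p = 1.29e-05). In low serum it held 2 and 2 against 2 and 8 counts, which overlap (adjusted p = 0.226), and the sign of the difference turns without 7TGP-POS replicate 2. IL18R1, the overlapping gene, had the opposite order between the cell lines and held 444 to 628 counts in the MDA-MB-436 libraries of standard serum and 13 to 58 in those of MDA-MB-231. Within MDA-MB-231 in that condition both genes rose in 7TGP-POS, IL18R1 from 15 and 13 to 50 and 58 counts.

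The levels of the IL-33 axis can be set side by side. In MDA-MB-231 7TGP-POS cells in standard serum, ST2 was at 9.44 TPM and IL33 at 0.94 TPM as group means, whereas in MDA-MB-436 7TGP-POS IL1RL1 was at 0.51 TPM and IL33 at 0.75 TPM. For the IL-1 axis, all 16 libraries held at least 1.64 TPM of IL1R1 and 7.09 TPM of IL1RAP, and at least 4.04 TPM of IL1A and 1.87 TPM of IL1B. Protein was not measured in these files.

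The cell lines were also compared within a sorted state. Comparing MDA-MB-231 with MDA-MB-436 in 7TGP-NEG cells, 5 of 9 members were called in low serum and all 8 tested members in standard serum, against 41.9% and 46.7% of all genes. In 7TGP-POS cells, 6 of 9 and 4 of 8 members were called, against 38.9% and 45.4% of all genes. With so many genes called, these counts say little about the members as a group. IL1A was lower in MDA-MB-231 in all 4 comparisons. In 7TGP-NEG cells it was 21.8-fold lower in low serum (log2 fold change -4.44 ± 0.086, adjusted p = 5.74e-36) and 11.9-fold lower in standard serum (-3.57 ± 0.090, adjusted p = 7.39e-17). In 7TGP-POS cells it was 2.66-fold lower (-1.41 ± 0.066, adjusted p = 2.85e-22) and 2.06-fold lower (-1.04 ± 0.075, adjusted p = 3.42e-10), and the latter was no longer called (-1.0) without MDA-MB-436 7TGP-POS replicate 1. IL1B was 19.5-fold and 9.38-fold lower in MDA-MB-231 7TGP-NEG than in MDA-MB-436 7TGP-NEG (adjusted p = 1.34e-30 and 1.05e-15). In 7TGP-POS cells it was not called, with log2 fold changes of -0.45 ± 0.065 (adjusted p = 1.16e-07) and -0.42 ± 0.081 (adjusted p = 0.000136). IL1R1 followed this order, with log2 fold changes of -1.49 and -2.46 in 7TGP-NEG cells, both called, and -0.58 and -0.23 in 7TGP-POS cells, neither called.

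IL18 and IL1RL1 ran the other way and were higher in MDA-MB-231 in all 4 comparisons. IL18 was 3.34-fold and 14.1-fold higher in 7TGP-NEG cells (adjusted p = 1.09e-18 and 1.45e-16) and 3.28-fold and 6.33-fold higher in 7TGP-POS cells (adjusted p = 1.1e-19 and 6.53e-15), in low and standard serum. IL1RL1 was 11.5-fold higher in 7TGP-NEG and 21.4-fold higher in 7TGP-POS cells in standard serum (adjusted p = 1.86e-08 and 5e-14). In low serum its summed counts were 47 against 4 in 7TGP-NEG, a ratio of 11.9 (95% counting interval 4.35 to 45.4), and 104 against 10 in 7TGP-POS. IL1RAP was higher in MDA-MB-231 with log2 fold changes from 0.66 to 1.34, of which 1.34 (7TGP-POS, low serum) and 1.04 (7TGP-NEG, standard serum) were called, the latter not without MDA-MB-231 7TGP-NEG replicate 1 (1.0). Among 7TGP-POS cells, IL1RN held 0 counts in MDA-MB-231 against 18 in MDA-MB-436 in low serum, and 0 against 35 in standard serum (adjusted p = 0.000555 and 3.59e-05). With the 0 set to the floor of 3 counts, IL1RN was 5.87-fold and 9.85-fold lower in MDA-MB-231. In 7TGP-NEG cells in standard serum it held 3 against 46 counts, a ratio of 0.0699 (95% counting interval 0.0139 to 0.217). IL33 was called higher in MDA-MB-231 in 7TGP-NEG cells of standard serum (16 against 1 counts, adjusted p = 0.00204) and lower in 7TGP-POS cells of low serum (19 against 68 counts, adjusted p = 0.000226).

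The reporter contrast itself was compared between the cell lines in the same model, as the MDA-MB-231 log2 fold change minus that of MDA-MB-436. This difference was called for 4 of 9 members in low serum and for 5 of 8 members in standard serum, against 11.7% and 13.8% of all genes. For IL1A it was 3.03 ± 0.12 (adjusted p = 4.45e-24) in low serum and 2.53 ± 0.12 (adjusted p = 9.32e-12) in standard serum. For IL1B it was 3.84 ± 0.12 (adjusted p = 1.94e-24) and 2.81 ± 0.13 (adjusted p = 7.58e-12). The contrast of both ligands was thus larger in MDA-MB-231 in both conditions. IL1R1 was called in standard serum (2.23 ± 0.18, adjusted p = 1.81e-08), where its direction was opposite in the 2 lines. IL33 differed the other way, by -3.66 ± 1.1 (adjusted p = 0.006) and -3.44 ± 1.2 (adjusted p = 0.0243), and its call in standard serum was lost with DESeq2 (adjusted p = 0.0811), without either MDA-MB-436 7TGP-NEG replicate (adjusted p = 0.129 and 0.0525) and without MDA-MB-231 7TGP-NEG replicate 1 (adjusted p = 0.0555). IL18 differed by -1.16 ± 0.13 (adjusted p = 1.56e-06) in standard serum. IL1RN was called in low serum, on the few counts given above (adjusted p = 0.00785, and 0.237 without MDA-MB-231 7TGP-NEG replicate 1). For IL1RL1 the difference was not called, at -0.09 ± 0.65 (adjusted p = 0.932) and 0.89 ± 0.52 (adjusted p = 0.233), in low and standard serum, and limma-trend on log2(TPM + 1) called it in standard serum (2.02, adjusted p = 3.87e-06).

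The genes beside the members on chromosome 2 were read in order of position. In the ligand cluster, from SLC20A1 to ZNG1B, 10 genes that are not members were tested. Over all genes tested, 5.9% and 7.69% were called in MDA-MB-231 and 10.5% and 12.5% in MDA-MB-436, in low and standard serum. None of the 10 genes was called in MDA-MB-231 in either condition or in MDA-MB-436 in low serum, which with so few genes is near these shares. In MDA-MB-436 in standard serum the count was 1, IL36RN, which encodes the IL-36 receptor antagonist and held 0 and 2 counts in 7TGP-NEG and 18 and 9 in 7TGP-POS. SLC20A1 and CKAP2L, on the side of IL1A, had log2 fold changes between -0.59 and 0.46 in the 4 comparisons, where IL1A and IL1B in MDA-MB-231 were at 2.6 to 4.10. In the receptor cluster, from RFX8 to MFSD9, 8 genes that are not members were tested. Of these, 2 and 3 were called in MDA-MB-231 and 1 and 3 in MDA-MB-436, in low and standard serum, against the same shares of all genes. IL1RL2, the IL-36 receptor, was called higher in MDA-MB-231 in both conditions (log2 fold changes 1.22 and 2.59), as was IL18R1 in standard serum (1.85). SLC9A2, a sodium-proton exchanger, was called lower in all 4 comparisons, between -3.29 and -1.19. RFX8 (3.06) and SLC9A4 (-1.47) were called in MDA-MB-436 in standard serum.

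**Figure D3:**
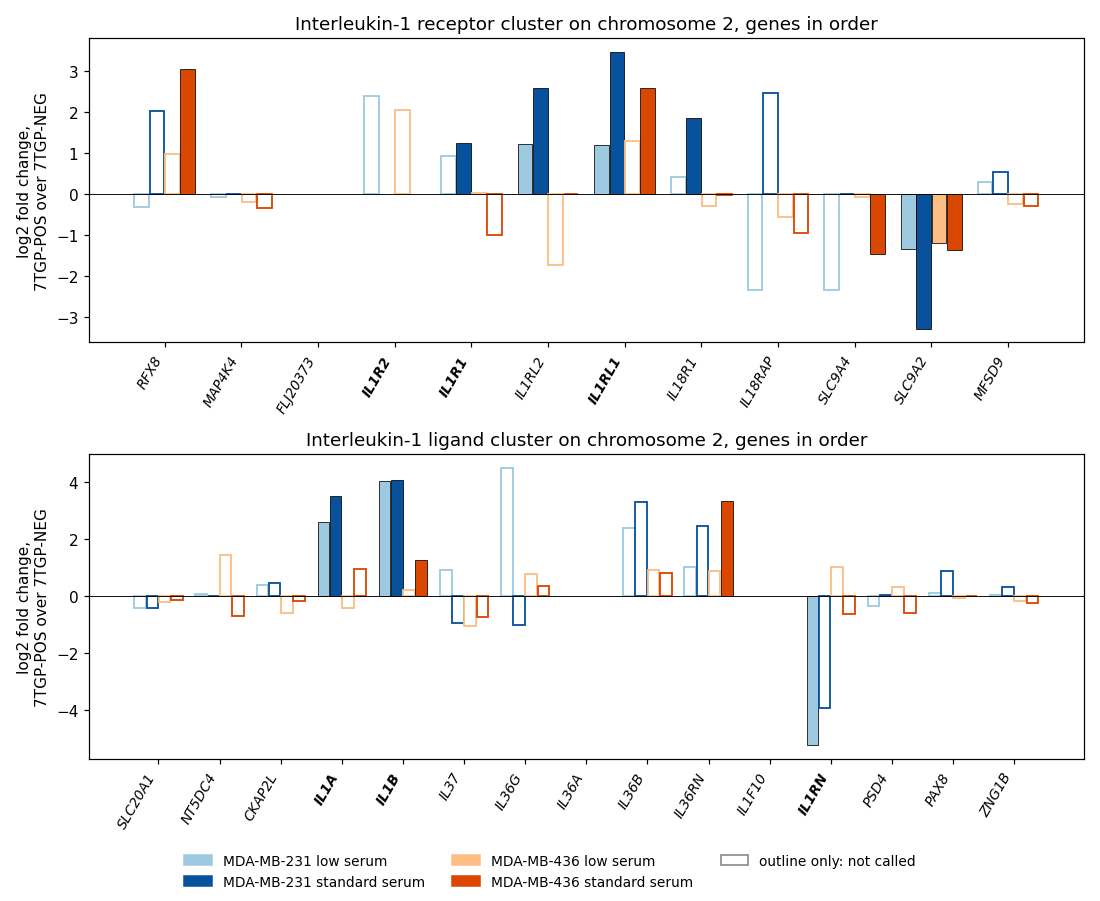
edgeR log2 fold change of 7TGP-POS over 7TGP-NEG (y axis) for the protein-coding genes of the IL-1 receptor cluster (top) and ligand cluster (bottom) of chromosome 2, in order of position and not to scale, with members in bold, filled bars for called genes and no bar where a gene was not tested. IL1A and IL1B stand between SLC20A1, NT5DC4 and CKAP2L on one side and IL37 on the other, none of which was called.

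The rest of the pathway was read from 4 lists of genes. The first list held 12 other family members, without IL1RL2, and 10 of them were tested in each condition. SIGIRR, which encodes an inhibitory receptor of the family, fell in MDA-MB-231 7TGP-POS cells in both conditions. It held 16.3 and 15.3 TPM in 7TGP-NEG and 4.06 and 2.99 TPM in 7TGP-POS cells in low serum, and 21.0 and 21.5 against 4.55 and 6.7 TPM in standard serum. The log2 fold change was -1.97 ± 0.095 (adjusted p = 1.86e-20) and -1.95 ± 0.34 (adjusted p = 0.0117). In MDA-MB-436 SIGIRR held 29.1 to 52.4 TPM and was not called. IL18R1, a chain of the IL-18 receptor, rose in MDA-MB-231 in standard serum from 0.36 and 0.35 TPM to 1.28 and 1.37 TPM (log2 fold change 1.85 ± 0.24, adjusted p = 8.73e-06). For MDA-MB-231 the list had 0 higher and 1 lower in low serum, then 1 and 1 in standard serum. For MDA-MB-436 it had 0 and 0, then 1 and 0, the 1 being IL36RN. The share of all genes called in either direction was 5.9%, then 7.69%, for MDA-MB-231 and 10.5%, then 12.5%, for MDA-MB-436. With 10 genes tested, counts this small say little about the list as a group.

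Of 19 genes of processing and release, 18 were tested. In MDA-MB-231, 3 were called higher and 0 lower in each condition, against 3.5% and 4.96% of all genes called higher. CASP1, which encodes the protease that matures IL-1β and IL-18, held 6.51 and 6.67 TPM in 7TGP-NEG and 17.1 and 15.5 TPM in 7TGP-POS cells in low serum, and 8.16 and 8.32 against 43.8 and 43.2 TPM in standard serum. The groups did not overlap, and the log2 fold change was 1.51 ± 0.084 (adjusted p = 2.4e-18) and 2.36 ± 0.10 (adjusted p = 5.4e-12). CARD16, an inhibitor that resembles the caspase-1 prodomain and lies beside CASP1, rose too, by 1.31 ± 0.11 (adjusted p = 1.82e-13) and 2.47 ± 0.11 (adjusted p = 8.77e-12), and reads could be split between these similar genes. CASP4, a caspase that senses lipopolysaccharide, rose in low serum (1.05 ± 0.058, adjusted p = 1.32e-18), and CASP5 was called in standard serum on 0 and 0 against 4 and 5 counts. In MDA-MB-436 the list had 0 higher and 1 lower in each condition, against 4.03% and 6.06% of all genes called lower. That gene was MEFV, which encodes pyrin, at 156 and 107 counts against 38 and 55 in low serum and 58 and 54 against 26 and 18 in standard serum.

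Of 23 genes of receptor signalling, 22 were tested, and 2 were called in MDA-MB-231 in low serum and 1 in standard serum, against the 5.9% and 7.69% of all genes given above. IRAK3, an inhibitory kinase of the pathway, was higher in MDA-MB-231 7TGP-POS cells in low serum, at the limit (1.00 ± 0.073, adjusted p = 8.57e-15). PELI2, a ubiquitin ligase that acts on IRAK proteins, was lower in MDA-MB-231 in low serum (-1.67 ± 0.13, adjusted p = 6.96e-14) and in standard serum (-2.20 ± 0.20, adjusted p = 7.75e-07). In MDA-MB-436 0 of the 22 were called by edgeR in either condition, against 10.5% and 12.5% of all genes. The median log2 fold change of the list lay between -0.12 and 0.05.

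Of 30 IL-1 target genes, 29 were tested. This list holds chemokines, cytokines, prostaglandin enzymes and NF-κB feedback genes. In MDA-MB-231, 19 of the 29 rose and 0 fell in low serum, and 16 rose and 0 fell in standard serum. Over all genes tested, 3.5% and 4.96% were called higher there and 2.4% and 2.72% lower. The 16 were all among the 19. In MDA-MB-436, 6 rose and 2 fell in low serum, and 9 rose and 4 fell in standard serum. The shares of all genes there were 6.52% and 6.47% called higher and 4.03% and 6.06% called lower. The median log2 fold change was 1.5 and 1.64 in MDA-MB-231, and 0.00 and 0.24 in MDA-MB-436. The list was chosen with results of these data known, and many of its genes also answer to other inducers of NF-κB.

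The target genes given here were chosen by their adjusted p in the same contrast. CXCL1, a neutrophil chemokine, held 45.2 and 43.4 TPM in MDA-MB-231 7TGP-NEG and 385 and 356 TPM in 7TGP-POS cells in low serum (log2 fold change 3.26 ± 0.060, adjusted p = 1.04e-34). IL6, a cytokine that signals through STAT3, held 8.71 and 8.72 TPM against 76.9 and 73.7 TPM in standard serum (3.07 ± 0.090, adjusted p = 1.5e-14). PTGS2, the inducible cyclooxygenase, held 16.6 and 15.6 TPM against 174 and 168 TPM in standard serum (3.37 ± 0.085, adjusted p = 2.45e-15). In all 3 the sublines were separated by several times the spread of the replicates. CSF3 rose in low serum by 2.43 ± 0.070 (adjusted p = 4.37e-28), TNFSF15 by 2.44 ± 0.053 (adjusted p = 2.86e-32) and IL11 by 2.36 ± 0.065 (adjusted p = 9.3e-29), and TNFSF15 rose in standard serum by 3.80 ± 0.082 (adjusted p = 6.18e-16).

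In MDA-MB-436, chemokine genes of the list went both ways. CXCL1 rose in low and standard serum (1.40 ± 0.054, adjusted p = 3.98e-24, and 1.87 ± 0.081, adjusted p = 2.59e-12), as did CXCL8 (1.46 ± 0.060, adjusted p = 3.14e-18, and 2.43 ± 0.076, adjusted p = 2.85e-14). IL11 rose from 21 and 24 counts to 214 and 235 in low serum and from 15 and 24 to 373 and 347 in standard serum. CXCL6 was at 0 and 0 counts in 7TGP-NEG and 200 and 149 in 7TGP-POS cells in low serum, and between 0 and 1 counts in all MDA-MB-231 libraries. IL6 was called higher in standard serum (1.40 ± 0.074, adjusted p = 4.31e-11). In low serum its log2 fold change was -0.39, which was not called. A link between these genes and the IL-1 ligands was not tested. PTGS2 went the other way in standard serum and fell from 522 and 569 to 343 and 250 counts. The genes that fell in both conditions, CXCL5 (-1.13 and -3.49) and CCL20 (-1.30 and -1.40), were named after their values were seen. Of the 19 and 6 target genes that rose in MDA-MB-231 and MDA-MB-436 in low serum, 4 were shared (21.1% and 66.7%). Of 16 and 9 in standard serum, 6 were shared (37.5% and 66.7%). The sharing over all genes called higher is not given here, so these shares have no background to be read against.

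**Figure D4:**
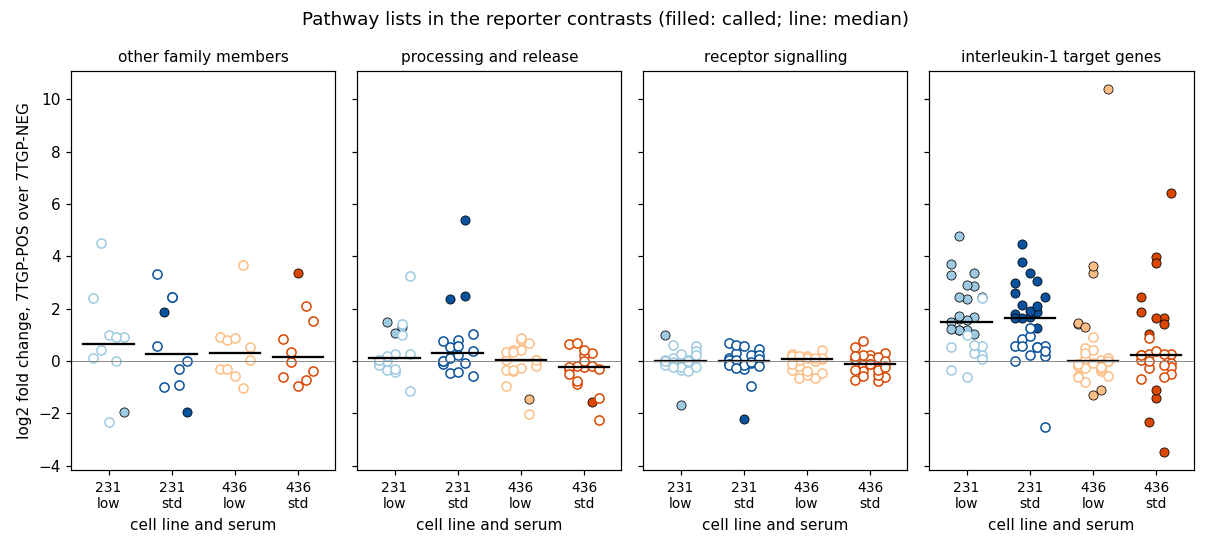
edgeR log2 fold change of 7TGP-POS over 7TGP-NEG (y axis) for the tested genes of the 4 pathway lists in each cell line and serum condition (x axis, std for standard), with filled points for called genes and a line at the list's median. The IL-1 target genes have medians of 1.5 and 1.64 in MDA-MB-231 and 0.00 and 0.24 in MDA-MB-436, and receptor signalling lies near 0 in all 4.

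Genes with a pattern like that of a member were sought over the 16 libraries, as Pearson's r of log2(TPM + 1) centred within each serum condition, among 12572 protein-coding genes with a mean of at least 1 TPM. These values describe libraries that share cell line and batch, so that any gene that separates the same groups scores high. IL6 was the nearest gene to IL1A (r = 0.986), followed by NUP160 (0.986) and PRKACB (0.984), and IL1B stood at 0.962. For IL1B the nearest were CLDN1 (0.989), COL4A5 (0.977) and PLXDC2 (0.963). For IL1R1 they were GPD2 (0.981), ZC3H12A (0.980) and EBI3 (0.979), and its r with IL1A was 0.875 and with IL1B 0.779. IL18 was nearest to CRIM1 (0.989), LIPA (0.988) and MAN2A1 (0.988), and IL1RAP to NKAPD1 (0.961) and BACE1 (0.955), with r = 0.900 between IL18 and IL1RAP. IL1RL1 was nearest to OSCAR (0.991), RGL1 (0.960) and SELENOP (0.958). IL1A was opposite to IL18 (-0.58) in these terms and unrelated to IL1RL1 (-0.08).

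Library totals ran from 27918418 to 46044073 counts. The summed level of 5 mesenchymal genes (VIM, FN1, ZEB1, SPARC and CD44) was 550 to 4450 TPM per library, with smaller sums in MDA-MB-231 7TGP-POS (1229 to 1372 TPM in low serum, 2083 to 2169 in standard serum) than in MDA-MB-231 7TGP-NEG (2709 to 2769 and 4034 to 4450). In MDA-MB-436 these sums were 575 to 638 TPM in 7TGP-POS against 550 to 583 in 7TGP-NEG in low serum, and 969 to 1021 against 588 to 643 in standard serum. VIM was the largest part of the sum in every group (388 to 3712 TPM as group means), and SPARC was at most 5.42 TPM. In MDA-MB-231 in low serum VIM alone was called (log2 fold change -1.05). In standard serum VIM (-1.03) and FN1 (-2.14) were called lower and SPARC (1.33) higher. In MDA-MB-436 the calls were higher only, for FN1 and SPARC in low serum and SPARC and CD44 in standard serum. The sum of and hormone receptor genes (CDH1, EPCAM, ESR1 and PGR) was 1.89 to 12.2 TPM. IL-1 genes are also expressed by leukocytes: 7 leukocyte markers summed to 7.3 to 16.2 TPM, mostly from CD14 (3.51 to 13.9 TPM as group means) and PTPRC (0.06 to 4.04 TPM), with CD3E and CD68 at no more than 2 and 6 counts in any library. Their sum was 7.84 to 10.3 TPM in MDA-MB-231 7TGP-NEG and 9.15 to 10.8 TPM in 7TGP-POS cells in low serum, and 7.33 to 7.44 against 7.8 to 8.04 TPM in standard serum. In MDA-MB-436 it was 10.8 to 11.6 TPM against 13.8 to 16.2 TPM in low serum, and 13.2 to 14.5 against 7.3 to 10.0 TPM in standard serum. The measured endothelial markers, CDH5 and VWF, summed to 0.06 to 0.68 TPM. eGFP is not among the counted genes, so the sorting labels could not be checked on the reporter. Of 8 known Wnt target and pathway genes (AXIN2, LEF1, NKD1, RNF43, ZNRF3, TNFRSF19, SP5 and TCF7), 0 were called by edgeR in MDA-MB-231 in low serum. With an adjusted p under 0.05 but short of the fold limit, AXIN2 (0.65), LEF1 (0.63), RNF43 (0.60) and TNFRSF19 (0.77) were higher there and SP5 (-0.55) lower. Far more of all genes pass that adjusted p alone than are called. In standard serum 2 rose in MDA-MB-231 (RNF43 and TNFRSF19). In MDA-MB-436 in low serum 1 rose (TNFRSF19, 1.38) and 1 fell (NKD1, -1.21). LEF1 (0.50), ZNRF3 (0.19) and SP5 (-0.59) passed the adjusted p alone there. In MDA-MB-436 in standard serum 1 rose (TNFRSF19, 2.47) and 2 fell (RNF43, -2.40, on at most 13 counts, and SP5, -1.13). LEF1 (0.90) passed the adjusted p alone there. Over all genes, 5.9% and 7.69% were called in MDA-MB-231 and 10.5% and 12.5% in MDA-MB-436. The part of these values in the IL-1 results was not tested. In bulk RNA, more cells with a transcript and more transcript per cell cannot be told apart.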

How the data were processed

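Bulk RNA-Seq counts and TPM of 16 libraries were used, with groups taken from the labels and 2 libraries per group. Per the study's methods, Bowtie matched the reads to ribosomal RNA, STAR mapped them to hg19, and STAR's own gene counting used Gencode v19. The submitters' processing notes name STAR 2.6.1a and edgeR 3.22.5. The authors deposited raw counts, which were not normalized, and TPM values, whose calculation is not stated. The total counts per library were 27918418 to 46044073.

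Biotypes came from Gencode v44 lifted to GRCh37, which matched 55538 of 57820 genes. A protein-coding gene entered the tests when its counts over the 8 libraries of a serum condition summed to 10 or more (low serum 16069, standard serum 15414). After TMM scaling, the robust quasi-likelihood fit of edgeR was run per serum condition with 4 groups, and p-values were adjusted (Benjamini-Hochberg) over all genes tested. The SE was taken as the size of the log2 fold change over the root of its F statistic. Calls needed an adjusted p under 0.05 and a log2 fold change of 1 or more in size. Alternatives were DESeq2, DESeq2 size factors, other filters, all biotypes, a replicate block, limma-trend on log2(TPM + 1) and log2(TPM + 0.1), and leaving out each library. The fits were tested on simulated data. p-values measure the spread between the 2 replicate cultures of a group. Each sorted state of a cell line was a single subline, so p-values do not cover differences between separately sorted sublines.

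Where a group held few counts, ratios of summed counts have exact 95% intervals, which cover counting error only. A group at 0 was set to a floor of 3 counts over the group. Fold values against the floor follow from that setting and are not confidence limits. Replicates of every group differed by more than sampling noise (chi-square per degree of freedom of 2.82 or more).

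Members, lists and tests were chosen with earlier results of these data known. The text names every member, at most 4 called genes per pathway list and reporter comparison by adjusted p, the 3 genes most like each member with a mean of at least 1 TPM, and the neighbours on chromosome 2. Markers and genes named outside this rule are given as such or as whole lists. Gene symbols not in the count tables were not analysed here, and some genes that these rules name are not reported here. Start-site sequences are from RefSeq (GRCh38.p14), a build that differs from the hg19 of the counts, and were matched by symbol.

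Tables and figures were made in Python 3.11.15 (matplotlib 3.10.9, scipy 1.17.1, pandas 2.3.3, numpy 2.4.6) and the fits in R 4.3.3 (limma 3.58.1, DESeq2 1.42.0, edgeR 4.0.16).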

Additional observations from a re-analysis of the deposited data

Results flagged for a closer look

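The reporter contrast of 6 members differed between the cell lines by edgeR's test of the difference, given as the MDA-MB-231 log2 fold change minus that of MDA-MB-436. IL1A differed by 3.03 in low and 2.53 in standard serum, and IL1B by 3.84 and 2.81, with the larger contrast in MDA-MB-231. IL1R1 differed by 2.23 in standard serum, with contrasts of 1.24 in MDA-MB-231 and -0.99, not called, in MDA-MB-436. IL33 differed by -3.66 in low and -3.44 in standard serum and IL18 by -1.16 in standard serum, with the larger contrast in MDA-MB-436. IL1RN differed by -6.26 in low serum, a fitted value that rests on 0 counts in MDA-MB-231 7TGP-POS and 9 in 7TGP-NEG. No group has more than 2 libraries, so single libraries were not screened for values far from their group.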

How the results depend on the processing

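Of 1350 recomputed log2 fold changes of members, over 85 comparisons of a member, 1302 kept their side of the limits, 38 lost a call, 10 gained a call and 0 reversed a called direction. Among the 1302, 41 changed sign with no call either way. limma-trend on log2(TPM + 1), which shrinks the changes of low genes, called 2 members and 302 genes in MDA-MB-231 in low serum (7TGP-POS against 7TGP-NEG), 3 and 522 in standard serum, and 0 members and 793 genes in MDA-MB-436 in low serum. It called 941 genes in MDA-MB-436 in standard serum, 2 members between the lines in 7TGP-POS of low serum, 4 in 7TGP-NEG of standard serum, and 2 for the difference in low serum. On log2(TPM + 0.1) it called 2 members in MDA-MB-231 in low serum. The TPM scale put the median log2 fold change of all genes between the lines in 7TGP-POS of low serum at -0.36, against -0.07. With adjusted p alone, 7 members and 6250 genes passed in MDA-MB-231 in low serum, 5084 genes in standard serum, and in MDA-MB-436 4 members and 8348 genes in low serum, then 7 and 7631 in standard serum. Leaving out each library in turn gave 2 to 4 members in MDA-MB-231 in low serum.

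The replicate numbers were not taken to pair the samples, since the labels tie them to no shared culture or day. The correlation of replicate deviations between groups ran from -0.18 to 0.08 in low serum and from -0.04 to 0.40 in standard serum, where it was over 0.1 for 5 of 6 pairs of groups. With the replicate block, the members called were 4 and 5 in MDA-MB-231 and 1 and 4 in MDA-MB-436 in low and standard serum, as without it, and genes called were 926, 1170, 1667 and 1938. The depth limits IL1RN, IL1R2 and IL33, and IL1RL1 in MDA-MB-436.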
